A study of Mus musculus with 2 samples.

Results

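Fc receptors bind the constant end of antibodies. Transcripts of 8 genes of such receptors, their chains or their relatives were followed in mouse lung cells at 2 ages. Fcgr1, Fcgr3 and Fcgr4 encode activating receptors for IgG, and Fcgr2b the inhibitory IgG receptor. Fcer1g encodes the signalling chain shared by activating Fc receptors, and Fcer1a the IgE-binding chain of the high-affinity IgE receptor. Fcgrt encodes the neonatal Fc receptor, and Fcrls a receptor of the Fc receptor-like family. All 8 were taken by gene symbol from a table of 32285 genes. Each had at least 1 UMI (a counted transcript molecule) in each of the 4 pools of cells.

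Cells were sorted as live CD45.2+ YFP+ from lungs of zbtb46-cre x rosa26-yfp mice, aged 7 days (neonatal) or 8 weeks (adult), and read by droplet single-cell RNA sequencing. In these mice Cre from the Zbtb46 locus, a gene of classical dendritic cells (DC), switches on YFP permanently, so that YFP marks cells that express Zbtb46 or whose ancestors did. Both ages carry the same alleles and received no treatment named in the labels. Each age had 2 pools, each made from at least 5 mice and prepared separately, so n = 2 per age throughout.

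Activating Fc gamma receptors hand their signal to the Fcer1g chain, whose ITAM motif recruits the kinase Syk, while Fcgr2b carries an ITIM motif that recruits phosphatases such as the SHIP1 enzyme encoded by Inpp5d. Myeloid cells use the balance of both to set how strongly an antibody-coated target is taken up and answered. Fcgrt works differently: it binds IgG inside acidic endosomes with the light chain B2m and returns it to the surface, and Fcer1a arms basophils and mast cells with IgE.

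After filtering, 12740 cells were kept, 1854 to 4444 per pool, with median depths of 3052 to 3721.5 UMIs per cell. They fell into 23 clusters, drawn with the 8 members kept out of the genes used, and 22 of these were named from marker lists that hold no member. The labels call the cells dendritic cells, but the DC classes made up 4277 cells, or 33.57%. Zbtb46 stood at 48.5 to 101 CPM (UMIs of a gene as counts per 1e6 UMIs of the class) in the sums of cDC1, cDC2 and mature DC, and at 0 to 27.5 CPM in the other classes tested. Age could not be told apart from loading channel, since the pools of 1 age were loaded together, nor from sex. Xist, which female cells transcribe from their inactive X, gave 670 and 585 CPM in neonates and 0.261 and 0.148 CPM in adults. Ddx3y, a gene of the Y chromosome, gave 0.575 CPM in neonatal pool 1, 12.2 CPM in neonatal pool 2, and 70.1 and 77.8 CPM in adults. No barcode was shared by pools of 1 age.

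All 8 genes are protein-coding, and 5 of them lie on chromosome 1 in GRCm38 (the mm10 build). Fcgr2b is at chr1:170958617-170976547, Fcgr4 at chr1:171018920-171029761, Fcgr3 at chr1:171051174-171064935, Fcer1g at chr1:171229572-171234365 and Fcer1a at chr1:173221284-173227214. Fcrls is at chr3:87250758-87263738, Fcgr1 at chr3:96282909-96293969 and Fcgrt at chr7:45092990-45103851. Fcgr4 is on the plus strand and the others are on the minus strand. No exon of a member overlapped an exon of another gene on its strand. Reads of this 3' assay come from transcript ends, and Fcgr2b shared 3.06% and Fcgr3 0.52% of the 31-base words in their last 500 bases with the other of this pair. For Fcgr4 the shared words came to 3.40%, with genes outside the family.

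The 150 bases before the RefSeq start site (GRCm38.p6) are printed for the 4 members whose transcripts were found mainly in 1 or 2 cell classes, read 5′ to 3′ along the gene's strand. Capitals mark a match to GAGGAAG, a site type bound by the myeloid factor PU.1, or to AGATAA, a site type bound by GATA factors, on either strand (CTTCCTC and TTATCT when read on the other strand).
Fcgr1, chr3:96293970-96294119, minus strand: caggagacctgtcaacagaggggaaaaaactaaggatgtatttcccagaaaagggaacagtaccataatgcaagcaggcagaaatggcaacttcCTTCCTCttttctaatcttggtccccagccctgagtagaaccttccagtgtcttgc
Fcgr4, chr1:171018776-171018925, plus strand: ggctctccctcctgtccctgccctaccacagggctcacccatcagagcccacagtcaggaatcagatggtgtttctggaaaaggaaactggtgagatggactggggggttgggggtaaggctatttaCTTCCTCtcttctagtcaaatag
Fcrls, chr3:87263525-87263674, minus strand: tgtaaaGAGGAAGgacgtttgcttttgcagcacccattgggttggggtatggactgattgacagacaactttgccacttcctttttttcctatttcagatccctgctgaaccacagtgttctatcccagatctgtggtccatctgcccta
Fcer1a, chr1:173227230-173227379, minus strand: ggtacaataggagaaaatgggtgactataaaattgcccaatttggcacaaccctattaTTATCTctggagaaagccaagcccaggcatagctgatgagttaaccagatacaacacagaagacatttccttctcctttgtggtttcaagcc
GAGGAAG was found before Fcgr1, Fcgr3, Fcgr4 and Fcrls, in 4 of the 8 members, and in 6.85% of all 32851 windows of this length. AGATAA was found before Fcer1a, in 1 of the 8, and in 5.65% of all windows. Both motifs were chosen after the sequences had been read, do not overlap in these windows, and are a description of letters, not of binding.

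For each class with at least 20 cells in every pool, UMIs were summed per pool, and 9 classes were large enough: cDC1, cDC2, mature DC, classical and nonclassical monocytes, C1q macrophages, neutrophils, basophils or mast cells, and T cells. The sums held 78814 to 5448892 UMIs. Since each transcript is counted once at its 3' end, CPM of different genes can be set side by side without a correction for length. These levels describe clusters of the same cells and carry no test.

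**Figure D1:**
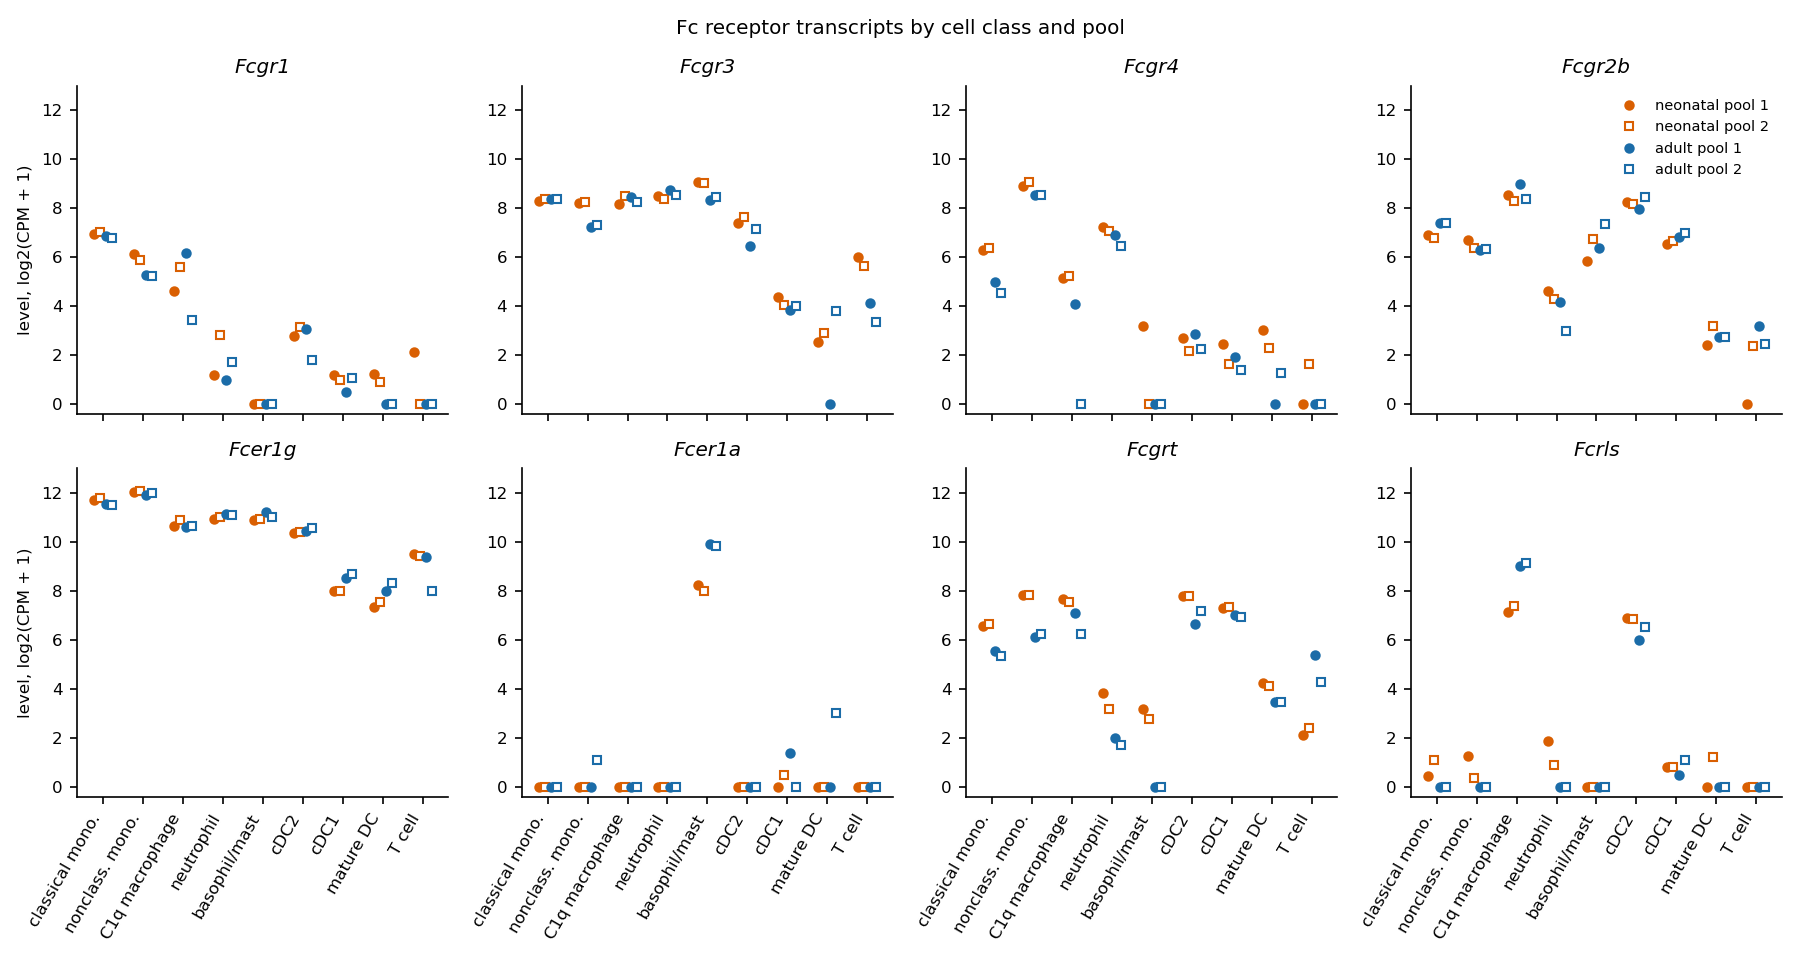
Level of each Fc receptor transcript, as log2(CPM + 1) on the vertical axis, in the 9 cell classes on the horizontal axis. Each point is 1 pool (orange neonatal, blue adult; filled pool 1, open pool 2); Fcer1a stands out only in basophils or mast cells and Fcrls in C1q macrophages and cDC2, whereas Fcer1g lies at 159 CPM or more in every class and pool.

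Fcer1g was the most abundant of the 8 in each of the 9 classes. Nonclassical monocytes held the most, at 4282 ± 34.5 (neonatal) and 4010 ± 162 CPM (adult, mean ± SD, n = 2), followed by classical monocytes at 3464 ± 178 and 2961 ± 36.4 CPM. cDC1 and mature DC held the least, at 251 and 159 CPM in their lowest pools. Among the 3 DC classes cDC2 stood apart, with 1344 ± 20.8 and 1453 ± 85.0 CPM, above every pool of cDC1 and mature DC. NK cells, which were numerous enough in the adult pools alone, held 3110 and 2844 CPM of Fcer1g beside 38.1 and 42.7 CPM of Fcgr3, the IgG receptor they are known for.

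The 3 activating IgG receptors had different peaks. Fcgr1, which binds monomeric IgG, was highest in classical monocytes, at 122, 132, 118 and 111 CPM (in the order neonatal pool 1, neonatal pool 2, adult pool 1, adult pool 2). It held 0 UMIs in basophils or mast cells (0 of 256 cells, which allows up to 1.172% of cells with a UMI) and under 2 CPM in each pool of cDC1. Fcgr4 was highest in nonclassical monocytes, at 484, 544, 377 and 377 CPM, and next in neutrophils, at 149, 136, 118 and 88.2 CPM. Fcgr3 was the most evenly spread: in each pool of both monocyte classes, C1q macrophages, neutrophils, basophils or mast cells and cDC2 it lay between 88.0 and 542 CPM, and in cDC1 and mature DC it was at 19.8 CPM or less.

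Fcgr2b was highest in C1q macrophages (372, 319, 505 and 334 CPM) and in cDC2 (303, 293, 252 and 351 CPM), whose ranges overlapped. cDC1 held 91.6 to 127 CPM, and mature DC 4.44 to 8.26 CPM. Mature DC held 17.8 CPM or less of each member other than Fcer1g. Fcgrt, the recycling receptor, ranged from 39.1 to 227 CPM across monocytes, C1q macrophages, cDC1 and cDC2, and was at 17.8 CPM or less in neutrophils, basophils or mast cells and mature DC. Alveolar macrophages, found in the neonatal pools alone, held 260 and 248 CPM of Fcgrt, 236 and 251 CPM of Fcgr3 and 64.3 and 47.5 CPM of Fcgr1.

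Fcer1a was nearly a marker of 1 class: of its 352 UMIs in named classes 96.59% were in basophils or mast cells, a class led by Mcpt8 and Prss34, genes of basophil proteases. Of the other classes of the 9, 5 held 0 UMIs, among them neutrophils (0 of 2041 cells, up to 0.147%) and cDC2 (0 of 777 cells, up to 0.386%). Of the 912 UMIs of Fcrls, 60.31% were in cDC2 and 36.4% in C1q macrophages, and in CPM the C1q macrophages held more. Limits and intervals of this kind cover counting error only.

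RNA freed from broken cells can add UMIs to any droplet. A bound was set by taking all S100a8, S100a9 and Retnlg outside neutrophils as free RNA. It also assumes that free RNA has the make-up of all barcodes of the pool, which was not tested. Under both assumptions free RNA could supply at most 0.0344% of Fcer1a in basophils or mast cells and 0.243% of Fcrls in C1q macrophages. In nonclassical monocytes it was at most 2.13% of Fcgrt and 1.80% of Fcgr3. All are for the pool with the largest share. For neonatal classical monocytes the bound was looser, at up to 15.5% of Fcgr4 and 18.1% of Fcgrt. In mature DC it was 52.7% of Fcgr2b in neonatal pool 1 and 16.6%, 14.1% and 16.3% in the other pools. For Fcgr3 there it was 65.2% and 35.8% in the neonatal pools and 9.06% in adult pool 2, while adult pool 1 held 0 UMIs.

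As a description of likeness across the 36 class and pool sums of the 9 classes (Pearson correlation of log2(CPM + 10), sums of 1 pool sharing a library), Fcer1a was most like D430036J16Rik, Ms4a2 and Itga2b (r of 0.99 or more), Ms4a2 being the beta chain of the IgE receptor. Fcrls was most like Mmp12 (r = 0.98) and Fcgr1 most like Trem2 (r = 0.97). Fcgr3 and Fcer1g were both most like Itgam, which encodes the CD11b integrin (r = 0.93 and 0.94), and were alike themselves (r = 0.91). Fcgr4 was most like Megf9 (r = 0.93) and Fcgr2b most like Trf (r = 0.91).

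In each class the 2 neonatal sums were compared with the 2 adult sums by edgeR's quasi-likelihood test over all genes tested, and a gene is said to be higher at 1 age, or called, at a Benjamini-Hochberg adjusted p under 0.05. Log2 values are neonatal minus adult, with their standard error after ±. Not all members had the counts to be tested: 41 of the pairs of member and class passed the filter on low counts, and 18 were called, 10 higher in neonates and 8 higher in adults. Over all genes tested, the share called ran from 2.98% in T cells to 32.2% in neutrophils, and is given for each class beside its members. Fcgrt was higher in neonates in 4 of the 6 classes tested and Fcgr4 in 3 of 5. Fcer1g was higher in adults in 3 of 9 classes and Fcgr2b in 2 of 7. Within a class, fewer cells with a transcript and less transcript per cell cannot be told apart from a sum.

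**Figure D2:**
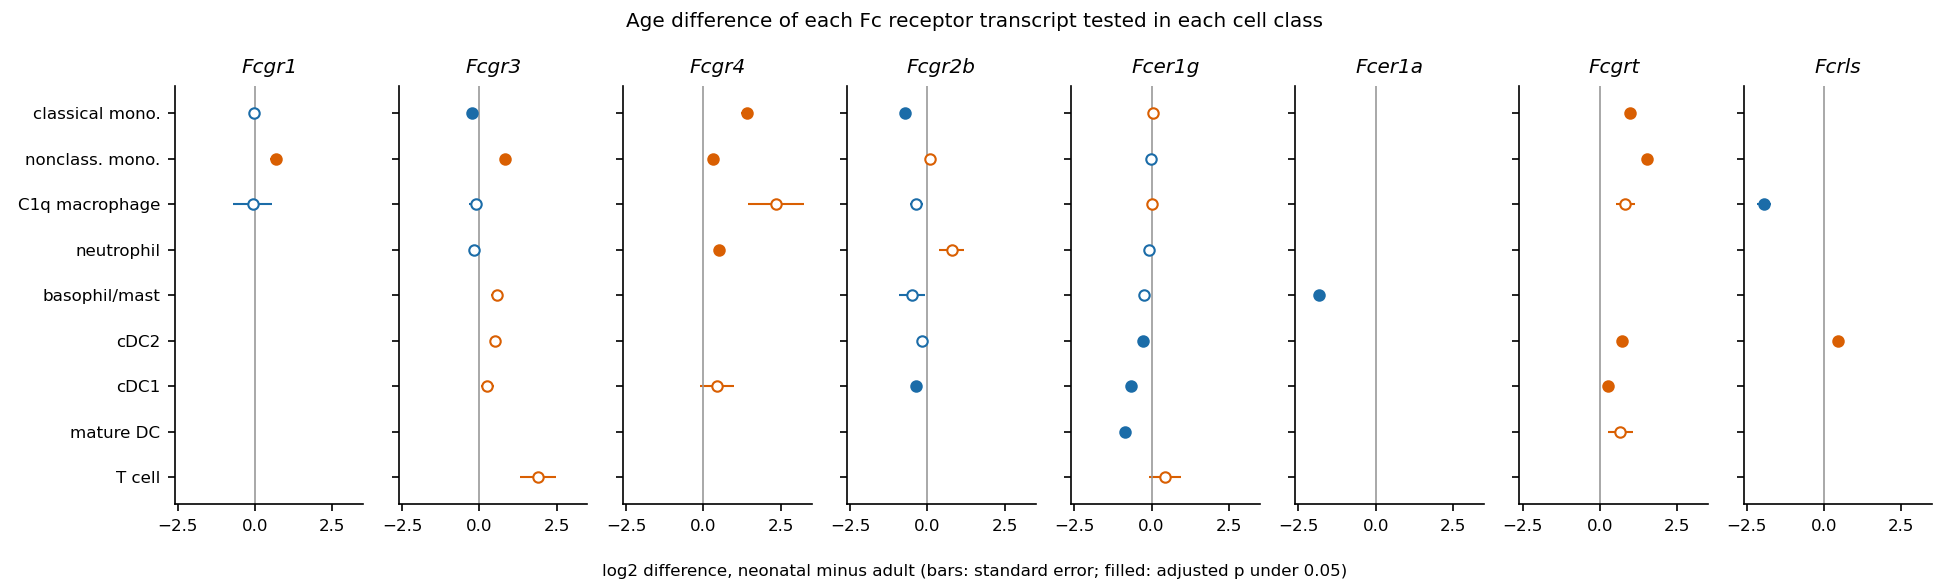
Log2 difference between ages (horizontal axis, neonatal minus adult, bars are the standard error) of each member in each class where it was tested. Filled points had an adjusted p under 0.05; the filled points of Fcgrt and Fcgr4 all lie to the right (higher in neonates) and those of Fcer1g and Fcgr2b all to the left, while those of Fcgr3 and Fcrls lie on both sides.

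In nonclassical monocytes, the patrolling cells that hold most Fcgr4, all 3 activating IgG receptors were higher in neonates. Of 6 members tested there, 4 were called, all higher in neonates, where 19.4% of all genes were called. Fcgr3 stood at 300 and 304 CPM in the neonatal pools and 150 and 159 CPM in the adults, with no overlap (log2 0.84 ± 0.10, adjusted p = 2.14e-13). Fcgr1 stood at 69.4 and 58.7 against 37.4 and 36.6 CPM (0.66 ± 0.19, adjusted p = 0.00686). Fcgr4 stood at 484 and 544 against 377 and 377 CPM (0.32 ± 0.08, adjusted p = 4.44e-04). The Fcgr3 difference lay between 0.81 and 1.03, and was called, under all 14 alternatives. Fcgr4 depended on the setting: with the members allowed to shape the clusters its difference was 0.06, and with DESeq2 its adjusted p was 0.0521. It was not called with doublets kept (0.19, adjusted p = 0.0815) or with thinned cells (0.20, adjusted p = 0.233). Without neonatal pool 2 the Fcgr4 call was also lost (0.24, adjusted p = 0.0905). The Fcgr1 call was lost without neonatal pool 1 (adjusted p = 0.102), without adult pool 2 (0.0686), with thinned cells (0.177) and with DESeq2 (0.215).

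In classical monocytes, the inflammatory cells that carry most Fcgr1, the receptors did not move together. There 4 of 6 tested members were called, 2 in each direction, where 19.0% of all genes were called. Fcgr4 was higher in neonates, at 77.4 and 82.7 against 30.6 and 22.5 CPM (1.40 ± 0.18, adjusted p = 4.81e-09). Fcgr1 did not pass the test, with 127 ± 6.87 and 114 ± 4.30 CPM (-0.04 ± 0.11, adjusted p = 0.867). Fcgr3 was called higher in adults (-0.23 ± 0.08, adjusted p = 0.0224), though its CPM overlapped, at 316 and 338 against 337 and 333. Of 14 alternatives 6 lost that Fcgr3 call. It was -0.04 with sums scaled by total UMIs, where the median of all genes moved by 0.19, and turned to 0.11 with cells thinned to 1000 UMIs. The adjusted p was 0.351 with DESeq2, 0.0786 without a count filter, 0.251 without neonatal pool 1 and 0.101 without adult pool 1.

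The age effects of both monocyte classes differed for 4 of the 6 members tested (class by age interaction in edgeR, 7.97% of all genes called). For Fcgr3 the effect was larger in nonclassical monocytes by 1.06 ± 0.12 (adjusted p = 3.70e-16), for Fcgr2b by 0.82 ± 0.17 (adjusted p = 7.30e-05) and for Fcgr1 by 0.69 ± 0.21 (adjusted p = 0.0191). For Fcgr4 it was larger in classical monocytes, a difference of -1.09 ± 0.17 (adjusted p = 4.56e-07). With the members allowed to shape the clusters, the Fcgr4 effect was 0.11 in classical and 0.06 in nonclassical monocytes. The difference was not refitted on those clusters. The Fcgr1 difference lost its call without neonatal pool 1 (0.52), without adult pool 1 (0.68) or without adult pool 2 (0.73).

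Monocyte clusters were almost split by age, which bears on these values. Cluster 4 held 1131 and 1225 of the neonatal nonclassical monocytes and cluster 7 held 277 and 291 of the adult ones, while classical monocytes lay in cluster 5 (680 and 613 neonatal cells) and cluster 9 (193 and 178 adult cells). Summed nonclassical markers within classical monocytes were also higher in neonates, at 2219 and 2452 against 1606 and 1364 CPM over 10 markers, none at 0. Neutrophil markers in them were at 939 and 1096 against 199.6 and 228 CPM (10 markers, none at 0). When the members helped to draw the clusters, fewer neonatal cells were named classical monocytes (385 and 352 in place of 685 and 625), and Fcgr4 in them was not called (0.11 ± 0.24, adjusted p = 0.843). At a finer clustering it was 0.51 ± 0.22 (adjusted p = 0.0962). Among nonclassical monocytes, summed classical monocyte markers were at 5300 and 5552 CPM in neonates against 2695 and 2598 in adults (8 markers, none at 0), and C1q macrophage markers at 1372 and 1527 against 5260 and 6303 CPM (8 markers, none at 0). Their part in the receptor differences was not tested.

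Neutrophils held Fcgr3 and Fcgr4, the pair through which they bind IgG complexes. Only Fcgr4 was called among 4 tested members, higher in neonates at 149 and 136 against 118 and 88.2 CPM (0.50 ± 0.16, adjusted p = 0.0134), where 32.2% of all genes were called. The call was lost with DESeq2 (adjusted p = 0.212), without neonatal pool 1 (0.0680), without neonatal pool 2 (0.0756) and without adult pool 2 (0.29, adjusted p = 0.270). Neonatal neutrophils formed 2 clusters. Cluster 15, led by Camp, Ngp and Ltf, granule genes of immature neutrophils, held 58.7 and 75.9 CPM of Fcgr4, and cluster 2 held 209 and 181 CPM. Adult neutrophils, almost all in cluster 22, lay between these at 118 and 88.4 CPM. Within neutrophils, nonclassical monocyte markers were at 3986 and 3958 CPM in neonates against 2766 and 2795 in adults (10 markers, none at 0), and the neutrophil markers themselves at 183363 and 177534 against 116383 and 124561 CPM (10 markers, none at 0). Their part in the Fcgr4 difference was not tested.

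In basophils or mast cells Fcgr3 stood at 542 and 518 against 327 and 355 CPM and missed the threshold (0.58 ± 0.20, adjusted p = 0.0655). In cDC2 it stood at 170 and 197 against 88.0 and 142 CPM and missed it narrowly (0.52 ± 0.17, adjusted p = 0.0506). In cDC1 as a whole Fcgr3 stood at 19.8 and 15.7 against 13.6 and 15.2 CPM and was not called (0.26 ± 0.21, adjusted p = 0.427). Within cDC1 cluster 0 it was 17.2 and 14.3 against 1.84 and 0 CPM, from 90, 70, 1 and 0 UMIs. In cDC1 cluster 1 it was 86.4 and 45.8 against 16.9 and 19.2 CPM, from 18, 11, 32 and 27 UMIs. In both clusters each neonatal pool lay above each adult pool, and the whole-class sums mix these clusters in unequal shares by age. T cells held 64.7 and 49.2 against 16.4 and 9.17 CPM of Fcgr3 (1.90 ± 0.58, adjusted p = 0.100), and 0 of the 2 members tested there were called by edgeR or by DESeq2, where 2.98% of all genes were called by edgeR. At an unadjusted edgeR p under 0.05 the count was 1, Fcgr3.

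Fcgr2b, the only IgG receptor with an inhibitory motif, was higher in adults in classical monocytes and cDC1. In classical monocytes it stood at 121 and 111 CPM in neonates and 168 and 170 CPM in adults (-0.74 ± 0.11, adjusted p = 1.13e-07), with no overlap and a range of -0.90 to -0.54 under 14 alternatives, all called. In cDC1 it stood at 91.6 and 102 against 114 and 127 CPM (-0.37 ± 0.09, adjusted p = 0.00245). This cDC1 call was lost with DESeq2 (adjusted p = 0.0600), at the finer clustering (-0.23), with thinned cells (-0.49) and within cluster 0 alone, where the sign turned (0.05 ± 0.17). In cDC2 (-0.18 ± 0.12, adjusted p = 0.370), C1q macrophages (-0.36 ± 0.22, adjusted p = 0.410) and nonclassical monocytes (0.09 ± 0.14, adjusted p = 0.743) Fcgr2b did not pass the test.

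A ratio within a pool does not depend on how sums are scaled. Fcgr2b UMIs over those of Fcgr1, Fcgr3 and Fcgr4 together were compared in 6 classes. T cells and mature DC, with 0 to 19 Fcgr2b UMIs per pool, were left out. Basophils or mast cells, with 9 to 37 Fcgr2b UMIs per pool, are also not among the 6, though neutrophils held no more. The basophil or mast cell ratio was 0.103 and 0.209 in neonates against 0.25 and 0.464 in adults. cDC1 held 3.56 and 5.40 inhibitory UMIs per activating UMI in neonates and 6.78 and 7.06 in adults. In cDC2 the ratio was 1.67 and 1.40 against 2.48 and 2.36. C1q macrophages stood at 1.06 and 0.712 against 1.15 and 1.06, so 1 neonatal pool was level with 1 adult pool. Classical monocytes stood at 0.235 and 0.201 against 0.347 and 0.365, and nonclassical monocytes at 0.121 and 0.0910 against 0.139 and 0.141. Of these 6 classes, neutrophils held the lowest ratios, with the opposite order, 0.0455 and 0.0390 against 0.0311 and 0.0147, from 6 to 21 Fcgr2b UMIs per pool.

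**Figure D3:**
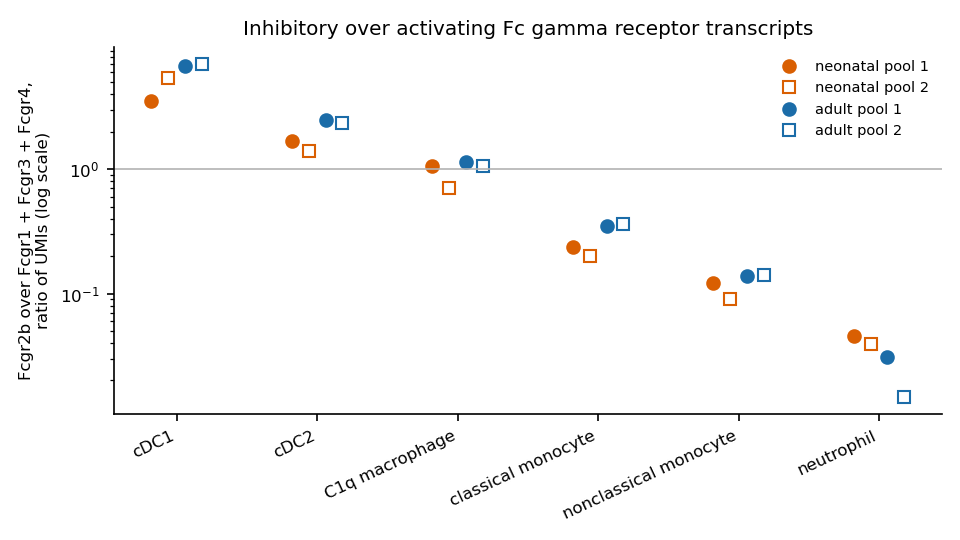
Ratio of Fcgr2b UMIs to Fcgr1, Fcgr3 and Fcgr4 UMIs on a log axis, for 6 classes, 1 point per pool (orange neonatal, blue adult; filled pool 1, open pool 2). Adult pools lie above neonatal pools in cDC1, cDC2 and both monocyte classes, 1 neonatal C1q macrophage pool is level with 1 adult pool, and neutrophil pools have the opposite order.

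Fcer1g, the shared signalling chain, passed no test of age where it was most abundant: this held in nonclassical monocytes (-0.03 ± 0.04, adjusted p = 0.694), classical monocytes (0.03 ± 0.04, adjusted p = 0.631), C1q macrophages (0.01 ± 0.14, adjusted p = 0.974) and neutrophils (-0.09 ± 0.06, adjusted p = 0.260). It was called higher in adults in the 3 DC classes. In cDC1 it stood at 257 and 251 CPM in neonates and 368 and 409 CPM in adults (-0.67 ± 0.06, adjusted p = 3.97e-09). In mature DC it stood at 159 and 184 against 257 and 318 CPM (-0.85 ± 0.13, adjusted p = 3.07e-05). In cDC2 it stood at 1329 and 1358 against 1393 and 1513 CPM (-0.28 ± 0.06, adjusted p = 2.30e-04), and with sums scaled by total UMIs, which moved the median of all genes by 0.17, it was -0.11 and no longer called (adjusted p = 0.142). With thinned cells the cDC2 call was lost as well (-0.28, adjusted p = 0.121). In cDC1, 3 of 5 tested members were called where 26.2% of all genes were. In mature DC, 1 of 2 was called where 28.5% were, and in cDC2, 3 of 5 were called where 15.9% were.

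Both DC classes with large differences were made of clusters with unequal Fcer1g. Within cDC1 cluster 0 (783 and 719 neonatal cells, 70 and 54 adult cells) Fcer1g was 254 and 247 against 253 and 276 CPM, which overlapped, and the test gave -0.14 ± 0.10 (adjusted p = 0.499). In cluster 1, with 33 and 34 neonatal cells against 248 and 180 adult cells, it was 322 and 342 against 401 and 444 CPM. Cluster 1 was led by Epcam, Cldn1 and genes of MHC class II, and summed cDC2 markers in cDC1 as a whole were at 500 and 481 CPM in neonates against 917 and 965 in adults (12 markers, Clec4a4 at 0). In mature DC, cluster 10 (419 and 391 neonatal cells, 9 and 9 adult cells) held 88.3 and 99.9 CPM in neonates. Cluster 14 held 378 and 376 CPM in neonates against 278 and 325 CPM in adults, so within it the sign turned (0.31 ± 0.15, adjusted p = 0.234).

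**Figure D4:**
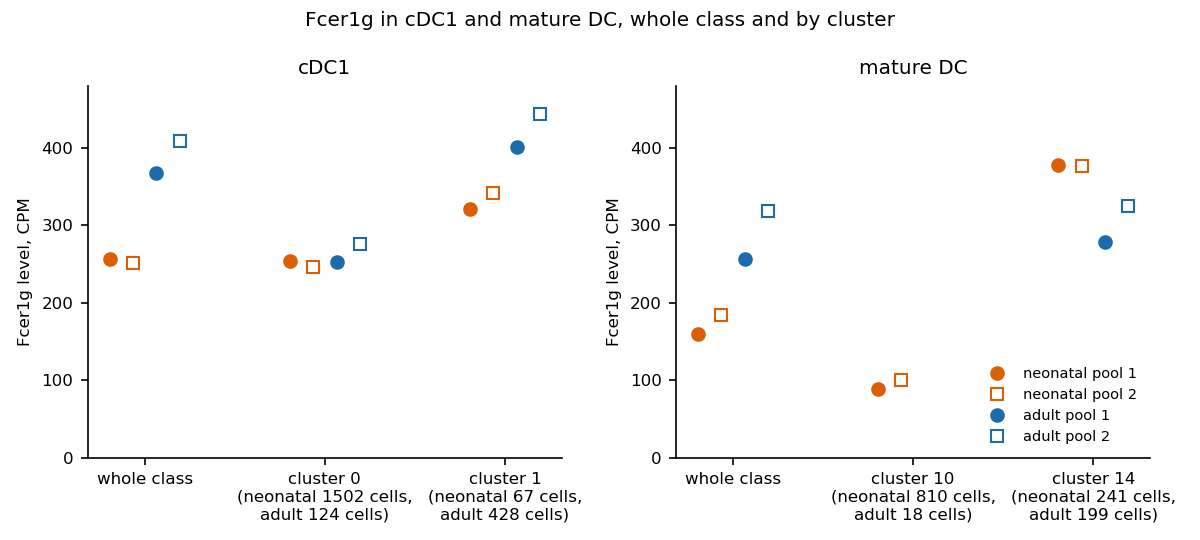
Fcer1g level in CPM (vertical axis) in cDC1 and mature DC, for the whole class and for each of its clusters with at least 20 cells in a pool, 1 point per pool. Adult pools lie above neonatal pools in both whole classes, overlap them in cluster 0 of cDC1, and lie below them in cluster 14 of mature DC.

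The Fcer1g age effect was smaller in size in cDC2 than in cDC1 (difference 0.40 ± 0.07, adjusted p = 1.91e-05, 7.44% of all genes called; 1 of 7 tested members), and this held without each pool in turn. It was larger in mature DC than in cDC2 (-0.49 ± 0.14, adjusted p = 0.00671, 14.1% of all genes called; 1 of 5 tested members), a call lost without neonatal pool 1 or neonatal pool 2 (adjusted p = 0.311 and 0.0742). Both differences are of whole classes and were not refitted within a cluster. Within cluster 0 of cDC1 the Fcer1g effect was -0.14, and within cluster 14 of mature DC 0.31, beside -0.28 in cDC2. The part of the cluster mix in these differences was not tested. Between mature DC and cDC1, 0 of 5 members differed by edgeR's test, also 0 at an unadjusted p under 0.05, where 18.4% of all genes were called. T cells held 721 and 684 against 661 and 257 CPM (0.44 ± 0.52, adjusted p = 0.836), and NK cell markers in this class were at 3484 and 3988 against 6482 and 1431 CPM (9 markers, none at 0).

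Among the called differences, that of Fcer1a, the IgE-binding chain, in basophils or mast cells was second in size to Fcrls in C1q macrophages. It stood at 299 and 258 CPM in neonates and at 962 and 914 CPM in adults (278 ± 29.6 and 938 ± 34.3), from 74, 88, 106 and 72 UMIs. The difference was -1.83 ± 0.17 (adjusted p = 2.65e-09), and all 14 alternatives called it, between -2.10 and -1.68. It was 1 of 4 members called, where 8.91% of all genes were called. A UMI of Fcer1a was seen in 40.5% and 36.3% of neonatal cells (84 and 113 cells) against 94.3% and 95.8% of adult cells (35 and 24 cells). With every cell thinned to 1000 UMIs the shares were 23.8% and 19.5% against 60% and 62.5%, in an exact two-sided permutation test p = 0.333, the smallest that 2 pools against 2 allow. T cells, which should lack the gene, held 0% in every pool at median depths of 3153 to 4244 UMIs, beside 2830 to 3283 UMIs in basophils or mast cells.

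Ms4a2, the beta chain of the same receptor, was also higher in adults, by less (601 ± 26.7 against 863 ± 36.8 CPM, -0.59 ± 0.15, adjusted p = 0.0126). The third chain, Fcer1g, stood at 1930 and 1987 against 2378 and 2055 CPM and was not called (-0.25 ± 0.11, adjusted p = 0.192). The summed markers of the class itself went the other way, at 13645 and 14321 CPM in neonates against 8622 and 7600 in adults (8 markers, none at 0). C1q macrophage markers in it were at 1019 and 872 against 118 and 279 CPM (8 markers, 4 of them at 0). Their part was not tested.

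Fcgrt transcripts were higher in neonates in both monocyte classes, cDC2 and cDC1. In nonclassical monocytes Fcgrt stood at 225 and 227 CPM in neonates and at 67.8 and 75.5 CPM in adults (1.53 ± 0.12, adjusted p = 6.29e-24), from 1.36 to 1.67 and called in all 14 alternatives. A UMI was seen in 40.5% and 43.5% of neonatal against 17.3% and 20.1% of adult cells, and in 19.7% and 19.8% against 5.65% and 6.69% after thinning (exact permutation p = 0.333). Among T cells the thinned shares were 0% to 3.64%. T cells had the opposite order in CPM, at 3.40 and 4.28 in neonates against 41.1 and 18.3 in adults. These came from 1, 2, 10 and 4 UMIs, and Fcgrt did not pass the count filter there. Without thinning, the T cell shares were 1.18% and 1.65% against 9.09% and 3.64%.

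In classical monocytes Fcgrt stood at 94.0 and 98.7 against 45.9 and 39.1 CPM (0.99 ± 0.15, adjusted p = 5.47e-07), and in cDC2 at 219 and 220 against 99.5 and 143 CPM (0.70 ± 0.13, adjusted p = 4.13e-05). In both, only thinned cells lost the call. The cDC2 difference was 0.43 without adult pool 1 and also at the finer clustering, and 0.99 without adult pool 2. Alveolar macrophage markers in cDC2 were at 762 and 784 CPM in neonates against 329 and 405 in adults (10 markers, none at 0), and their part was not tested. In cDC1 the difference was small, 157 and 161 against 129 and 121 CPM (0.28 ± 0.07, adjusted p = 0.00669). It was lost with DESeq2 (adjusted p = 0.109), at the finer clustering (0.14), in cluster 0 alone (0.31) and with thinned cells, where it was -0.03. C1q macrophages (202 and 184 against 136 and 74.7 CPM, 0.83 ± 0.30, adjusted p = 0.0925) and mature DC (0.67 ± 0.39, adjusted p = 0.215) did not pass. The Fcgrt effects of cDC2 and cDC1 (0.44 ± 0.15, adjusted p = 0.0677) and of both monocyte classes (0.53 ± 0.20, adjusted p = 0.0955) were not shown to differ.

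B2m, which pairs with Fcgrt and with MHC class I, was higher in adults in cDC2 (740 ± 23.6 against 1402 ± 65.7 CPM, -1.09 ± 0.06, adjusted p = 1.37e-20) and in cDC1 (-0.66 ± 0.04, adjusted p = 1.73e-11), where Fcgrt was higher in neonates. In mature DC B2m was higher in neonates (0.44 ± 0.08, adjusted p = 4.15e-04). B2m was not called in either monocyte class, where Fcgrt was also higher in neonates. In each of these, 0 of 3 tested genes of its list (further Fc receptors and partners) were called, beside 19.0% and 19.4% of all genes. That list also gave 2 of 2 higher in adults in basophils or mast cells (8.91% of all genes called) and 1 of 1 in T cells (2.98%). The cDC1 and mature DC values are of whole classes, whose clusters held unequal shares of each age, and B2m was not tested within a cluster.

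In C1q macrophages Fcrls was higher in adults: it stood at 141 and 168 CPM in neonates and at 521 and 563 CPM in adults (-1.94 ± 0.21, adjusted p = 6.82e-08), from 77, 77, 65 and 113 UMIs. It was 1 of 7 tested members called, where 7.97% of all genes were called. With cells thinned to 1000 UMIs it was -1.16 ± 0.43 and not called (adjusted p = 0.114), and the other 12 alternatives called it. The shares of cells with a UMI were 33.3% and 41.4% against 58.3% and 60.7%, and after thinning 13.6% and 20% against 33.3% and 17.9%, which overlap (exact permutation p = 0.667). Adult pools held 24 and 28 such cells.

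In cDC2 the order was the opposite, with 119 and 113 CPM in neonates against 62.8 and 91.0 CPM in adults (0.46 ± 0.15, adjusted p = 0.0315). Of 14 alternatives 8 lost this call, among them DESeq2, the finer clustering (0.11) and leaving out adult pool 1 (0.17), neonatal pool 1 (0.41) or neonatal pool 2 (0.48). The age effects of C1q macrophages and cDC2 differed by -2.36 ± 0.26 (adjusted p = 1.36e-09, 2.32% of all genes called; 1 of 7 tested members), a pair of classes chosen after the values had been seen. That difference held without each pool in turn, between -2.52 and -2.19.

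Proliferation markers in C1q macrophages were at 2406 and 1328 CPM in neonates against 24.0 and 249.1 in adults (8 markers, none at 0), and cDC2 markers at 2862 and 2509 against 3518 and 3273 CPM (12 markers, none at 0). The 2 adult pools also differed in their C1q macrophage markers, at 3294 and 8255 CPM. Whether these take part in the Fcrls difference was not tested.

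Of 28 genes of ITAM and ITIM signalling, 26 were tested in nonclassical monocytes, 8 higher in neonates and 2 higher in adults, with a median of 0.13 beside -0.01 for all genes. Of all genes there 19.4% were called, 829 higher in neonates and 853 in adults. Vav3, a guanine nucleotide exchange factor, stood at 162 ± 1.18 against 80.4 ± 5.39 CPM (0.88 ± 0.13, adjusted p = 1.51e-09) and Dok2, an adaptor that restrains such signals, at 39.5 ± 5.81 against 4.47 ± 4.67 CPM (2.97 ± 0.38, adjusted p = 1.68e-11). In classical monocytes 5 of 26 were higher in neonates and 2 in adults (19.0% of all genes called, 658 and 970), Lat2 among the latter (-0.94 ± 0.14, adjusted p = 1.56e-07). In neutrophils 5 of 22 were higher in neonates and 10 in adults (32.2% of all genes called, 945 and 914), with a median of -0.23 beside 0.02 for all genes. There Syk, the kinase that binds phosphorylated ITAMs, stood at 258 ± 14.9 against 465 ± 47.1 CPM (-0.80 ± 0.10, adjusted p = 1.08e-08).

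In cDC1, 3 of 26 were higher in neonates and 9 in adults (26.2% of all genes called, 1138 and 1471), and in cDC2, 2 of 26 and 5 (15.9% of all genes, 492 and 779). Lat2 in cDC1 differed by -0.77 ± 0.09 (adjusted p = 3.07e-07). Tyrobp, an ITAM adaptor like Fcer1g, was higher in adults in cDC2 (-0.52 ± 0.05, adjusted p = 2.67e-11), mature DC (-0.97 ± 0.10, adjusted p = 4.04e-07) and neutrophils (-0.42 ± 0.05, adjusted p = 3.89e-09). Genes of this list were tested in whole classes only, not within the clusters of cDC1, mature DC or neutrophils. In mature DC 4 of 25 were higher in neonates and 2 in adults, where 28.5% of all genes were called. In C1q macrophages 0 of 24 and 1 (Vav3) were called, beside 7.97% of all genes, and in T cells 0 of 16 and 1 (Lat), beside 2.98%. In basophils or mast cells edgeR called 0 of 18, and 3 had an unadjusted p under 0.05, beside 8.91% of all genes called.

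Of 12 receptors that signal through the Fcer1g chain, 8 were tested in nonclassical monocytes, 5 higher in neonates and 2 in adults, where 19.4% of all genes were called. Over the 9 classes the list gave 41 tests, 12 higher in neonates and 14 in adults. The C-type lectins Clec4n and Clec4d, which sense fungal and mycobacterial sugars, stood at 120 ± 22.0 against 11.9 ± 1.97 CPM (3.19 ± 0.22, adjusted p = 3.42e-28) and at 92.9 ± 14.2 against 6.78 ± 2.97 CPM (3.62 ± 0.28, adjusted p = 6.99e-26). Clec4b1, a lectin of the same cluster of genes, went the other way at 4.08 ± 0.64 against 48.2 ± 10.3 CPM (-3.68 ± 0.31, adjusted p = 4.24e-23). Clec4b1 was also higher in adults in classical monocytes, cDC1, cDC2 and C1q macrophages, by -3.44, -5.79, -0.96 and -1.04 on the log2 scale. These too are values of whole classes, not tested within a cluster of cDC1 or of monocytes. Clec4n was higher in neonates in cDC2 (2.35 ± 0.27, adjusted p = 1.38e-09), C1q macrophages (1.97 ± 0.40, adjusted p = 0.00129) and classical monocytes (1.35 ± 0.30, adjusted p = 7.12e-04).

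In classical monocytes 4 of 8 such receptors were higher in neonates and 1 in adults (19.0% of all genes called), and in cDC2 2 of 5 and 2 (15.9%). In cDC1 0 of 4 were higher in neonates and 3 in adults (26.2%), in mature DC 0 of 2 and 1 (28.5%) and in C1q macrophages 1 of 5 and 1 (7.97%). In neutrophils 0 of 6 were higher in neonates and 4 in adults (32.2%), Clec4e among them (291 ± 19.8 against 872 ± 1.04 CPM, -1.53 ± 0.09, adjusted p = 5.94e-20). Of 13 further Fc receptors, homologues and partners, few were tested. Fcrla, an intracellular Fc receptor-like protein, was tested in cDC1 alone, at 89.8 ± 2.89 against 104 ± 21.3 CPM (-0.30 ± 0.10, adjusted p = 0.0387), and the other members of this list that were called are Ms4a2 and B2m.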

How the data were processed

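Hashtagged lung cells of 2 ages, 2 pools each, were read with a 3' single-cell kit (version 2), per the labels' protocols. The authors deposited raw UMI counts per gene and barcode. The submitters' processing notes name Cell Ranger 6.1.2, Seurat 4.2.0 and mm10. Each pool held 8172362 to 20346024 gene UMIs, which limits the precision of low transcripts. No column of per-sample values was left unused (0 columns).

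Barcodes with at least 500 genes and 1000 UMIs, at most 10% mitochondrial UMIs and at most 20% of tag counts from the other hashtag were kept. Doublets called by scrublet in scanpy (101, 87, 21 and 14 per pool) were removed. Clusters (scanpy 1.11.5, leidenalg 0.10.2, 2000 variable genes per age without the members, 30 components, 15 neighbours, resolution 1) were named from marker lists, since no cell annotation was used here, so classes may differ from those of the study. UMIs were summed per pool and class with at least 20 cells in each pool. Age was tested with edgeR 4.0.16 (R 4.3.3, limma 3.58.1; TMM, filterByExpr, quasi-likelihood, two-sided, Benjamini-Hochberg over all genes tested), without a block. DESeq2 1.42.0 was an alternative. Alternatives also changed the scaling, the count filter, the cell filter, doublets, clustering, thinning to 1000 UMIs per cell, and left out each pool. Scripts were tested on simulated data. Other tools were Python 3.11.15, numpy 2.4.6, scipy 1.17.1, pandas 2.3.3 and matplotlib 3.10.9.

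All 8 members are named. Of the other lists, genes named were among the 3 called genes with the smallest p in a class. Members, lists and tests were chosen with earlier results of these data known. RefSeq promoters matched all 8 members. The gene most like Fcgrt is not reported here.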

Additional observations from a re-analysis of the deposited data

Results flagged for a closer look

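Age effects (log2, neonatal minus adult) were compared between 2 cell classes by a class by age interaction in edgeR with the pool as a block. They differed for 6 members, over 3 planned pairs of classes and 1 added pair. In the remaining planned pair, mature DC and cDC1, no tested member was called, where 18.4% of all genes were. Between nonclassical and classical monocytes the difference of effects was 0.69 for Fcgr1, 0.82 for Fcgr2b, 1.06 for Fcgr3 and -1.09 for Fcgr4. Of all genes, 7.97% were called in this pair. For Fcer1g the difference was 0.40 between cDC2 and cDC1 (7.44% of all genes called) and -0.49 between mature DC and cDC2 (14.1%). Both are values of whole classes, not refitted within a cluster. The Fcgr1 call and the Fcer1g call between mature DC and cDC2 were not kept in every fit with 1 pool left out. For Fcrls it was -2.36 between C1q macrophages and cDC2 (2.32% of all genes called), the pair added after the values were seen.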

How the results depend on the processing

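Of 25 called results (18 age differences and 7 differences of age effects), 9 kept direction and call under every alternative run for them. Each age difference had 13 to 15 alternatives. Each difference of age effects had only 4, all leaving out 1 pool, with no change of clustering, scaling, thinning or tool. Over all 282 alternatives 233 kept both, 45 kept the direction without the call and 4 reversed. The reversals were Fcgr2b in cDC1 within 1 cluster (0.053), Fcer1g in mature DC within 1 cluster (0.31), and, with thinned cells, Fcgrt in cDC1 (-0.034) and Fcgr3 in classical monocytes (0.11). The cause was not tested. The number of members called in C1q macrophages (1) became 2 with total UMI scaling, with doublets kept, with members among the variable genes and at resolution 2, and 0 with thinned cells, and lay between 1 and 3 when 1 pool was left out. In T cells (0) it became 2 without a count filter and 1 with thinned cells, and 0 to 1 with a pool left out. In basophils or mast cells (1) it became 2 with total UMI scaling, without a count filter and with the replicate block. Of all genes, the main fits called 380 of 4766 in C1q macrophages, 116 of 3891 in T cells and 233 of 2616 in basophils or mast cells. With thinned cells these were 54 of 784, 57 of 1042 and 90 of 921. Without a count filter they were 429 of 12865, 168 of 12954 and 199 of 11485. In cDC1 (3) it became 1 with DESeq2 and with thinned cells. Within 1 cluster of cDC1 it was also 1, a member higher in neonates that was none of the 3 called in the whole class. Of all genes in cDC1, 2609 of 9951 were called in the main fit and 1288 of 9951 with DESeq2. With thinned cells it was 652 of 5672, and within 1 cluster 698 of 9360. With thinned cells it became 0 in cDC2 (3), 2 in classical monocytes (4) and 2 in nonclassical monocytes (4), the last also 2 with DESeq2. Thinning also lowered the calls over all genes, from 1271 of 7999 to 224 of 2563 in cDC2. In classical monocytes they went from 1628 of 8586 to 506 of 5253. In nonclassical monocytes they went from 1682 of 8652 to 804 of 6807, and to 666 of 8652 with DESeq2. In mature DC (1) it became 2 without a count filter and 0 within 1 cluster. Of all genes there, 2194 of 7685 were called in the main fit, 2395 of 14881 without a count filter and 401 of 5619 within 1 cluster. For neutrophils the calls over all genes were 1859 of 5778 in the main fit, 821 of 5778 with DESeq2 and 2021 of 6025 with doublets kept. In neutrophils (1) it became 0 with DESeq2 and 3 with doublets kept, and 0 to 2 with a pool left out. Without thinning, neonatal minus adult shares of cells with a UMI were 23.3 points for Fcgrt and 18.4 for Fcgr3 in nonclassical monocytes, 11.5 for Fcgr4 in classical monocytes, -56.7 for Fcer1a and -22.1 for Fcrls.

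Pool numbers name pools and do not pair them: deviations of same-numbered pools correlated between -0.22 and 0.045. With the replicate block Fcrls in cDC2 lost its call (0.46, adjusted p = 0.0535 in edgeR). The stricter cell filter could not be run for C1q macrophages and neutrophils, nor the fit within 1 cluster outside cDC1 and mature DC. C1q macrophages and basophils or mast cells rest on 24 to 35 adult cells per pool, which limits the precision of their values.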
